A study of Mus musculus with 16 samples.

Results

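Usp2, Wee1 and Noct are 3 genes whose transcripts cycle over the day in mouse liver, and they were followed here over 16 liver microarrays of 4 genotypes. Each was taken through the platform probe set that names that gene alone (probe sets 10584634, 10556266 and 10491915), the highest by mean where several exist; each gene had 1. They are 3 of 13152 genes kept by the filter and of 19938 genes with a probe set of their own, and all 3 passed the filter. The genes were chosen on measured values: all 3 were picked because they were lower in Rassf1a-/- than in wild-type livers, and Usp2 and Wee1 also because they were lower in the double genotype than in wild type. Values of those 2 comparisons are therefore given as a description, with no test.

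The study crossed mice lacking Rassf1a, a tumour suppressor that acts upstream of Hippo kinases, with mice lacking 1 copy of Sav1, the scaffold of those kinases, and measured whole liver RNA on Affymetrix whole-transcript arrays. The groups were Rassf1a-/- Sav1+/- (the double genotype), Rassf1a-/-, Sav1+/- and wild type, with 4 arrays each, all of strain 129. The labels name no treatment, and no promoter, cell type or Cre driver for either allele. The sources used here give no sex, age, batch or time of day at collection. Each array has a sample name of its own, but nothing states that the 4 came from separate animals. A p-value therefore reflects the spread among these arrays, which may be technical in part.

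Sav1 was at 7.30 to 8.17 (log2 signal) in the 8 arrays of Sav1+/- genotypes and at 8.37 to 8.78 in the other 8, with no overlap. Rassf1 was at 6.94 to 7.71 in the 8 arrays labelled Rassf1a-/- and at 6.99 to 8.14 in the other 8. Which part of Rassf1 its probe set covers is not stated, so these values do not check the deletion. The 7 hepatocyte markers averaged 13.36 to 13.68 in every array. No measured gene of 8 marker lists (hepatocyte, Kupffer cell, stellate cell, endothelium, cholangiocyte, lymphocyte, neutrophil, pancreas) passed the test in any comparison. At most 2 of a list were at an unadjusted p under 0.05. Only 1 of 5 cholangiocyte, 3 of 7 lymphocyte, 2 of 4 neutrophil and 3 of 4 pancreas markers were measured, so these cell types were hardly covered. The other lists were measured in full. The mean of 3 Y-linked genes (Eif2s3y, Kdm5d and Uty) was 8.87 to 9.18 in 5 arrays and 2.09 to 4.17 in the other 11. The 5 were replicates 1 and 2 of the double genotype, replicate 2 of Rassf1a-/- and replicates 3 and 4 of Sav1+/-, with none in wild type. Within the double genotype, Rassf1a-/- and Sav1+/- the arrays thus did not all come from 1 animal, while for wild type these values do not tell. Values without these 5 arrays are given beside most differences of the 3 genes, and beside calls that they end.

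The liver clock is a feedback loop. The dimer of BMAL1 (gene Arntl) and CLOCK binds E-box elements and drives transcription of its own repressors, the PER, CRY and REV-ERB (Nr1d1, Nr1d2) proteins and CIART, as well as of the PAR bZIP factors DBP, TEF and HLF, which pass the rhythm on to output genes. Usp2, Wee1 and Noct lie downstream of this loop. USP2 is a deubiquitinating enzyme whose reported substrates include the clock proteins PER1 and CRY1. WEE1 is the kinase that inhibits CDK1 and holds back entry to mitosis, and its E-box control links the clock to cell division in regenerating mouse liver. Nocturnin, the product of Noct, belongs to the family of CCR4-like nucleases, was first described as a deadenylase and later as a phosphatase of NADP(H), and mice lacking it resist diet-induced obesity. The level of such transcripts depends on the hour of collection, which the labels do not give. In whole liver, fewer expressing cells and less RNA per cell cannot be told apart.

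Promoter windows were read because the 3 genes are known clock outputs and because Tef and Per1 were the transcripts most like them over the arrays. Windows of 270 bases (250 before the start and 20 from it on) came from RefSeq on GRCm38.p6, all on the plus strand, and 2 of the 3 genes, Usp2 and Noct, matched an entry. The Usp2 window is chr9:44084670-44084939, at a start 17899 bases after the first base of the RefSeq gene, and the Noct window is chr3:51224197-51224466, at the first base of its gene. Below them stand the first listed windows of Tef (chr15:81802423-81802692) and Per1 (chr11:69098699-69098968). Capitals mark the letters of any of the 6 motifs searched on both strands.
Usp2: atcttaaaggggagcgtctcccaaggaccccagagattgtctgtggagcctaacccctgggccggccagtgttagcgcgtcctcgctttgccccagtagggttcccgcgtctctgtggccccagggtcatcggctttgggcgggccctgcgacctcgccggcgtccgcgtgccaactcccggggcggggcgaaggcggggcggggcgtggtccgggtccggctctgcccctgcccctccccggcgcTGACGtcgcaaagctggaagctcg
Noct: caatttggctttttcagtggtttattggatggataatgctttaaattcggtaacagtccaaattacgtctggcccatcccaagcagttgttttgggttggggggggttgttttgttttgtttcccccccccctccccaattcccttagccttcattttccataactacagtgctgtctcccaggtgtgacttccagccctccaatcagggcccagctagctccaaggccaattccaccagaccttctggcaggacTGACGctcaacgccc
Tef: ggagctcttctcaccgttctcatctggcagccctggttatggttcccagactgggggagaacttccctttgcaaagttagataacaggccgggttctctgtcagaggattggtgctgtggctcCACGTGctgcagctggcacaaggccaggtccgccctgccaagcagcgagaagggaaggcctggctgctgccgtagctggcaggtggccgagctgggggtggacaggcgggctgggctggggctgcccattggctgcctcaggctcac
Per1: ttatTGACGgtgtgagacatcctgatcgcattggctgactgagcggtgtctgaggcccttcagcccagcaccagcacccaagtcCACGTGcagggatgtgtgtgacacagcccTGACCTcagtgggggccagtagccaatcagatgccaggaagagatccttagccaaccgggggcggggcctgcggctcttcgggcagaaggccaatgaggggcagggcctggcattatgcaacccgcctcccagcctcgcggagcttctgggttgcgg

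The motifs were the E-box CACGTG, the E-box-like CACGTT, the D-box TTANGTAA bound by PAR bZIP factors, the ROR and REV-ERB half-site AGGTCA, the cAMP response element TGACGTCA and its half-site TGACG, which every full element also contains. The Usp2 and Noct windows held the half-site TGACG alone among these, at bases -4 to 0 in Usp2 and 5 to 9 in Noct, counting the start as 0. That half-site stood in 19.4% of all 32851 windows of this length. The Tef window above held an E-box, and the Per1 window above an E-box, the ROR half-site as TGACCT and TGACG. A further listed window of Tef (chr15:81811164-81811433) held an E-box, at bases -138 to -133. A further one of Per1 (chr11:69099902-69100171) held no E-box and TGACG alone, at bases -132 to -128. What Per1 shows thus depends on the start taken. The E-box stood in 6.57% of all windows and in 6 of the 21 windows of clock genes. Counted by gene, 5 of 16 clock genes with an entry had it in at least 1 window (Bhlhe41, Ciart, Cry1, Per1 and Tef). The shares for the other motifs were 4.17% (CACGTT), 2.18% (D-box), 14.96% (AGGTCA) and 1.73% (TGACGTCA). These are matches of letters in short windows. Elements farther away, or at starts without a listed window, were not searched. The GC content was 70.7% in the Usp2 window and 50.7% in the Noct window, against a median of 52.6% over all windows.

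Usp2 had log2 signals of 7.93, 7.08, 7.39 and 9.38 in the double genotype, 7.53, 7.66, 7.79 and 7.47 in Rassf1a-/-, 10.95, 11.06, 10.65 and 11.05 in Sav1+/-, and 11.43, 11.27, 11.56 and 11.78 in wild type. The 8 arrays without Rassf1a were all below the 8 with it, as they were for 23 of 13152 genes (0.175%), a split that the choice of the genes favours. Replicate 4 of the double genotype stood above the other 7 of that set. Means were 7.95 ± 1.02, 7.62 ± 0.14, 10.93 ± 0.19 and 11.51 ± 0.21 in the same order (SD, n = 4 each). The level that the filter asks of an array, its own 40th percentile, lay between 7.16 and 7.44, so Usp2 in the Rassf1a-/- arrays was close to it, and 2 double arrays were below theirs. The order of the means was Rassf1a-/-, double, Sav1+/- and wild type, with no tested difference that passed between neighbours inside the lower or the upper pair.

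Wee1 had 7.27, 5.97, 6.88 and 7.96 in the double genotype, 7.17, 7.45, 7.45 and 7.74 in Rassf1a-/-, 9.23, 8.99, 8.50 and 9.13 in Sav1+/-, and 9.50, 9.34, 10.17 and 10.58 in wild type. The same split held for this cell cycle kinase: every array without Rassf1a was below every array with it. Means were 7.02 ± 0.83, 7.45 ± 0.23, 8.96 ± 0.32 and 9.90 ± 0.58 (SD, n = 4 each). In the double genotype 3 arrays, and in Rassf1a-/- 1 array, lay below their own filter level. Here the double genotype was lowest, followed by Rassf1a-/-, Sav1+/- and wild type, again with no difference that passed inside each pair.

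Noct had 8.14, 6.51, 8.61 and 8.96 in the double genotype, 8.31, 6.27, 7.43 and 8.75 in Rassf1a-/-, 9.72, 10.67, 9.45 and 10.24 in Sav1+/-, and 9.84, 9.88, 10.36 and 9.92 in wild type. The split by Rassf1a was again complete, and replicates spread widely in both genotypes without Rassf1a. Means were 8.06 ± 1.08 in the double and 7.69 ± 1.09 in Rassf1a-/- livers, against 10.02 ± 0.55 in Sav1+/- and 9.999 ± 0.242 in wild type (SD, n = 4 each). In both genotypes without Rassf1a, replicate 2 was the lowest and lay below its filter level. Replicate numbers follow the order of the samples within a genotype and match no arrays between genotypes. Sav1+/- and wild-type means were nearly the same, and the arrays of the 2 genotypes overlapped.

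**Figure D1:**
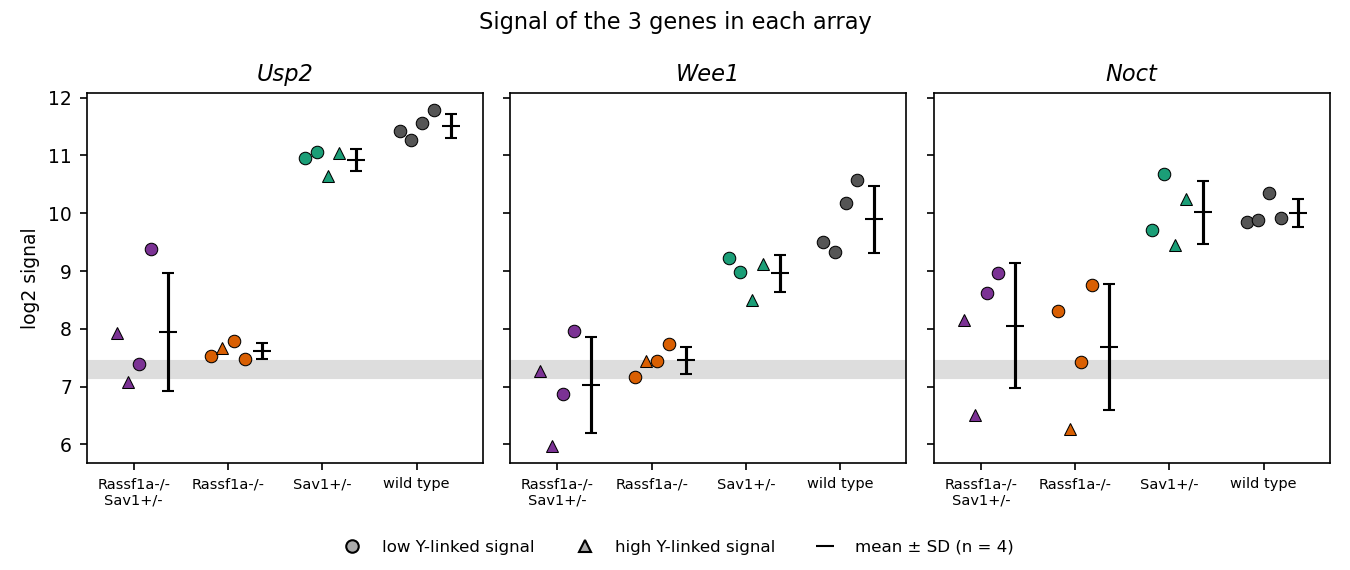
Log2 signal of Usp2, Wee1 and Noct in each of 16 arrays, by genotype (double, Rassf1a-/-, Sav1+/-, wild type; 4 arrays each). Triangles are the 5 arrays with high Y-linked signal and circles the other 11, black marks are the mean ± SD, and the grey band is the range of the arrays' filter level (7.16 to 7.44). In each gene all 8 arrays without Rassf1a lie below all 8 with it, as for 0.175% of all genes.

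In the comparisons that chose the genes, Usp2 was 14.9-fold lower in Rassf1a-/- than in wild type (log2 difference -3.90 ± 0.33, SE) and 11.8-fold lower in the double genotype than in wild type (-3.57). Wee1 was 5.45-fold lower in Rassf1a-/- (-2.45 ± 0.34) and 7.34-fold lower in the double genotype (-2.88). Noct was 4.95-fold lower in Rassf1a-/- (-2.31 ± 0.50) and 3.84-fold lower in the double genotype (-1.94), a comparison by which it was not chosen. Without the 5 high Y-linked arrays Noct was at -1.84 in Rassf1a-/- and at -1.21 in the double genotype, both minus wild type, while Usp2 was at -3.91 and -3.13 and Wee1 at -2.45 and -2.48. Over all genes limma called 92 of 13152 (0.7%) for Rassf1a-/- against wild type and 108 (0.821%) for the double genotype against wild type at an adjusted p under 0.05. Both comparisons use the same wild-type arrays.

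Loss of Rassf1a on a Sav1+/- background was compared through the double and Sav1+/- arrays. This comparison shares no array with Rassf1a-/- against wild type, but its double arrays entered the comparison on which Usp2 and Wee1 were also chosen, so for these 2 genes it is only partly independent of the choice. Usp2 and Wee1 fell. Usp2 was 7.90-fold lower in double than in Sav1+/- livers, a log2 difference of -2.98 ± 0.33 (SE; 95% interval -3.68 to -2.28), with a limma adjusted p of 0.000637 over all 13152 genes. Wee1 was 3.83-fold lower (-1.94 ± 0.34, -2.65 to -1.22, limma adjusted p = 0.0116). Noct was lower by a similar amount, 3.90-fold (-1.96 ± 0.50, -3.02 to -0.90), but its replicates spread more and it did not pass (unadjusted p = 0.00114, limma adjusted p = 0.0782). From the lowest difference up, Usp2 ranked 2, Noct 5 and Wee1 6 of 13152 genes.

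For each of the 3 genes all 16 pairs of a double and a Sav1+/- array had the double array lower, which 187 genes (1.42%) also showed. Limma called 110 genes in this comparison (0.836%), of which 22 (0.167%) were lower, and the median difference over all genes was 0.08. The exact permutation test of 4 arrays against 4 gave each gene the smallest two-sided p it can, 0.0286. Groups that do not overlap always give this p, so it adds nothing to the 16 pairs. Leaving out any 1 of the 16 arrays kept Usp2 (-3.46 to -2.70) and Wee1 (-2.25 to -1.59) past the threshold, whereas Noct (-2.26 to -1.45) passed only without Rassf1a-/- replicate 2 (adjusted p = 0.0467). Without the 5 arrays that had high Y-linked signal the differences were -2.62 for Usp2, -1.69 for Wee1 and -1.41 for Noct, and none passed (limma adjusted p = 0.116, 0.220 and 0.268). A fit to these 2 genotypes alone left both at the same size with adjusted p of 0.0511 and 0.118.

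**Figure D2:**
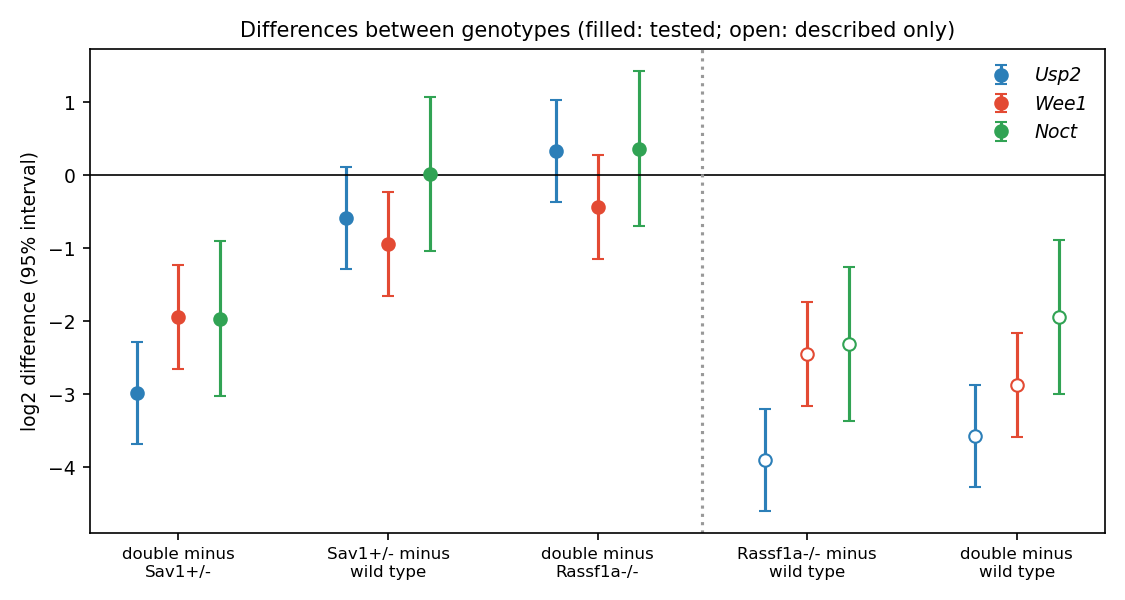
Log2 differences of Usp2, Wee1 and Noct between genotypes with 95% intervals from limma. Filled marks are the tested comparisons. Open marks are the comparisons by which the genes were chosen, so that they describe only. Noct was not chosen by double minus wild type, but is given there as a description too. The 3 intervals of double minus Sav1+/- and that of Wee1 in Sav1+/- minus wild type lie below 0, and the other 5 filled intervals include 0.

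Losing 1 copy of Sav1 alone was followed by no called change in the 3 genes. Usp2 was at -0.58 ± 0.33 in Sav1+/- minus wild type (SE; 95% interval -1.28 to 0.12, unadjusted p = 0.0966, limma adjusted p = 0.646). Wee1 was at -0.94 ± 0.34 (-1.65 to -0.22, unadjusted p = 0.0131, limma adjusted p = 0.367). Noct was at 0.02 ± 0.50 (-1.04 to 1.08, limma adjusted p = 0.997). All 4 Sav1+/- arrays were below all 4 wild-type arrays for Usp2 and for Wee1, as they were for 558 genes (4.24%), and the groups overlapped for Noct. For Usp2 and Wee1 the exact permutation test thus gave its smallest two-sided p here too, 0.0286. Limma called 0 genes here (0%), with 1204 at an unadjusted p under 0.05. The wild-type arrays are those used in choosing the genes.

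Adding the loss of 1 Sav1 copy to that of Rassf1a was followed by no called change either. The Rassf1a-/- arrays entered the choice of all 3 genes and the double arrays that of Usp2 and Wee1, so this comparison is not independent of the choice. In double minus Rassf1a-/- livers Usp2 was at 0.33 ± 0.33 (SE; 95% interval -0.37 to 1.03, limma adjusted p = 0.633), Wee1 at -0.43 ± 0.34 (-1.14 to 0.28, 0.546) and Noct at 0.37 ± 0.50 (-0.69 to 1.43, 0.725). The sign for Usp2 rests on 1 array, since without double replicate 4 the difference was -0.15. Limma called 1 gene of 13152 here (0.0076%), none of the 3.

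The interaction asks whether the effect of losing Rassf1a differed between livers with 1 copy and with both copies of Sav1, and it includes the choosing comparison. It was 0.91 ± 0.47 for Usp2 (SE; 95% interval -0.08 to 1.90, unadjusted p = 0.0681, limma adjusted p = 0.565), 0.51 ± 0.48 for Wee1 (-0.50 to 1.52, 0.793) and 0.35 ± 0.71 for Noct (-1.15 to 1.84, 0.917). None passed, and limma called 0 genes (0%), with 1236 at an unadjusted p under 0.05.

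Clock genes moved with the 3 outputs, and their part in the result was not tested. The gene lists used here and below were drawn up with earlier results of these data known. Their calls therefore describe and are no independent support. Of 19 clock genes listed, 15 were measured, and Cry1 and Bhlhe41 were below the filter. In double against Sav1+/- livers Arntl rose by 3.01 (log2, limma adjusted p = 0.000637), and 4 genes fell: the repressors Ciart (-3.64, 0.00239) and Per3 (-1.78, 0.0134) and the PAR bZIP factors Tef (-1.15, 0.0123) and Dbp (-2.17, 0.0362). Per1 (-1.4999, adjusted p = 0.0692) and Per2 (-1.21, adjusted p = 0.05001) did not pass. The median of the 15 was -0.71, against 0.08 over all genes. The 4 lower calls became 7 without double replicate 4, 2 without double replicate 3 and 1 without double replicate 2, and 0 both without the 5 arrays named above for their Y-linked signal and in a fit to the 2 genotypes alone. Without the 5 arrays Arntl was at 3.07 and was not called either (adjusted p = 0.116).

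Clock genes were also called in the comparisons that chose the 3 outputs, which is a description, as the clock list was not drawn up blind to these data. In Rassf1a-/- against wild type, 2 clock genes were called higher (Arntl 3.37, Clock 1.23) and 6 lower (Ciart -4.16, Dbp -3.17, Per3 -2.76, Per2 -2.22, Per1 -1.85, Tef -1.72), with a median of -0.60. In the double genotype against wild type, which shares the wild-type arrays, 3 were called higher (Arntl, Clock and Nr1d1) and the same 6 lower, with a median of -0.42. Without the 5 arrays whose Y-linked signal was high none of the 6 was called in that comparison, and of the 3 higher only Arntl was (2.95, adjusted p = 0.04997). Leaving out 1 array ended the call of Nr1d1 in 8 of 16 fits, that of Per1 in 9 and that of Dbp in 5. The highest adjusted p was 0.144 for Nr1d1 and 0.138 for Dbp, both without double replicate 2, and 0.108 for Per1, without wild-type replicate 1. In Rassf1a-/- against wild type Per1 lost its call in 5 of the 16 fits (up to 0.0934, without Rassf1a-/- replicate 2). Sav1+/- against wild type and double against Rassf1a-/- gave no clock gene call by limma (2 and 1 genes at an unadjusted p under 0.05), and their medians were -0.17 and 0.15.

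Arntl, the activator, ran opposite to the outputs. It was at 9.41, 10.15, 9.97 and 9.34 in the double genotype, 10.08, 10.03, 9.95 and 10.25 in Rassf1a-/-, 5.77, 7.41, 6.96 and 6.70 in Sav1+/-, and 6.39, 7.80, 6.47 and 6.19 in wild type. Replicate 4 of the double genotype, the highest of its group for Usp2, Wee1 and Noct, was the lowest for Arntl. It was also the highest of the 4 in all 10 clock genes whose mean was lower in the double genotype than in wild type, and the lowest in 1 of the 5 whose mean was higher.

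Of 10 other rhythmic liver outputs listed, 9 were measured. Of these, Upp2, a uridine phosphorylase, fell in double against Sav1+/- livers (-1.19, limma adjusted p = 0.0349). It lost the call without double replicate 1 or 2 or Sav1+/- replicate 1 or 4 (adjusted p up to 0.124, without double replicate 2) and passed in 6 of the 10 other settings, with an adjusted p of 0.217 without the 5 high Y-linked arrays. Lpin1, a phosphatidate phosphatase (-1.13, 0.0819), and Nampt, the rate-limiting enzyme of NAD salvage (-0.76, 0.0828), did not pass. The median of the 9 was -0.65. In Rassf1a-/- against wild type Alas1, the first enzyme of heme synthesis, and Nampt were called lower (-2.11, adjusted p = 0.00560, and -1.15, adjusted p = 0.00682, limma), and in the double genotype against wild type Nampt and Upp2 were (-1.32, adjusted p = 0.00320, and -1.30, adjusted p = 0.0181, limma). Without the 5 high Y-linked arrays neither was called in the double genotype (-1.16, adjusted p = 0.135, for Nampt and -0.86, adjusted p = 0.224, for Upp2), and Upp2 also lost its call in 4 of the 16 fits that leave out an array, those without wild-type replicate 1 or 4 or double replicate 1 or 2.

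Relatives of the 3 genes were counted next, in comparisons where under 1% of all genes were called. Of 47 other USP family deubiquitinases listed, 39 were measured, and limma called none in Rassf1a-/- or double against wild type (2 and 5 at an unadjusted p under 0.05, against 10.4% and 13.6% of all genes). In double against Sav1+/- livers 1 was called higher, Usp21 (0.51, adjusted p = 0.0483), which passed in 1 of the 16 fits that leave out an array. Without the 5 high Y-linked arrays Usp21 was at 0.71 and was not called (limma adjusted p = 0.249). Usp18, which acts on ISG15 conjugates, was at -1.07 (adjusted p = 0.115), and the median of the 39 was 0.14. Of 5 measured genes for reported USP2 substrates none was called there: Per1 as above, Mdm2 at -0.29 (adjusted p = 0.390) and Ccnd1, cyclin D1, at -0.37 (adjusted p = 0.786). These are RNA levels, while USP2 acts on the proteins, which were not measured.

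Around Wee1, 7 of 12 listed relatives and members of the CDK1 switch were measured, and limma called none in any of the 6 comparisons, with unadjusted p under 0.05 for 1, in Sav1+/- against wild type. In double against Sav1+/- livers they lay between -0.20 and 0.11, the lowest being Ccnb2, a cyclin B. Cdk1 itself, Ccna2, Cdc25c and Wee2 were below the filter, so they were not tested.

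Around Noct, all 10 listed deadenylases and related nucleases were measured and limma called none in any comparison, with at most 2 at an unadjusted p under 0.05. In double against Sav1+/- livers 1 had an unadjusted p under 0.05, Pan2, a poly(A) nuclease subunit (0.51, adjusted p = 0.201), and the median was 0.09. Of 8 enzymes that make or use NADPH, 7 were measured and limma called none, with at most 1 at an unadjusted p under 0.05. The smallest p among them in that comparison belonged to Pgd, a dehydrogenase of the pentose phosphate pathway (0.44, adjusted p = 0.290).

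Over the 16 arrays, correlation mostly restates the split by Rassf1a and is given as a description. The 5 genes most like Usp2 by Pearson r were Tef (0.987), Ciart (0.983), Per3 (0.981), Coq10b, a coenzyme Q binding protein (0.961), and Wee1 (0.942). Those most like Wee1 were Tef (0.950), Usp2 (0.942), Ciart (0.940), Per3 (0.921) and Nampt (0.921). Those most like Noct were others: Per1 (0.937), Bhlhe40, the clock repressor DEC1 (0.928), Mfsd2a, a lysophospholipid transporter (0.906), Upp2 (0.889) and Slc5a6, a vitamin transporter (0.872). Among the 3 themselves r was 0.942 for Usp2 and Wee1, 0.860 for Usp2 and Noct and 0.827 for Wee1 and Noct.

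Taking each array as its deviation from its genotype mean removes that split. Usp2 was then most like Tef (0.926), Per3 (0.893) and Tmem60 (0.881). Wee1 was most like Pex7, a peroxisomal import receptor (0.880), Cdkn2aipnl (0.856) and Timp3, a metalloproteinase inhibitor (0.851). Noct was most like Spry1, an inhibitor of growth factor signalling (0.926), Postn, a matrix protein (0.887), and Mlkl, the necroptosis effector (0.871). These are the highest of 13152 correlations over 16 arrays that share 4 means.

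**Figure D3:**
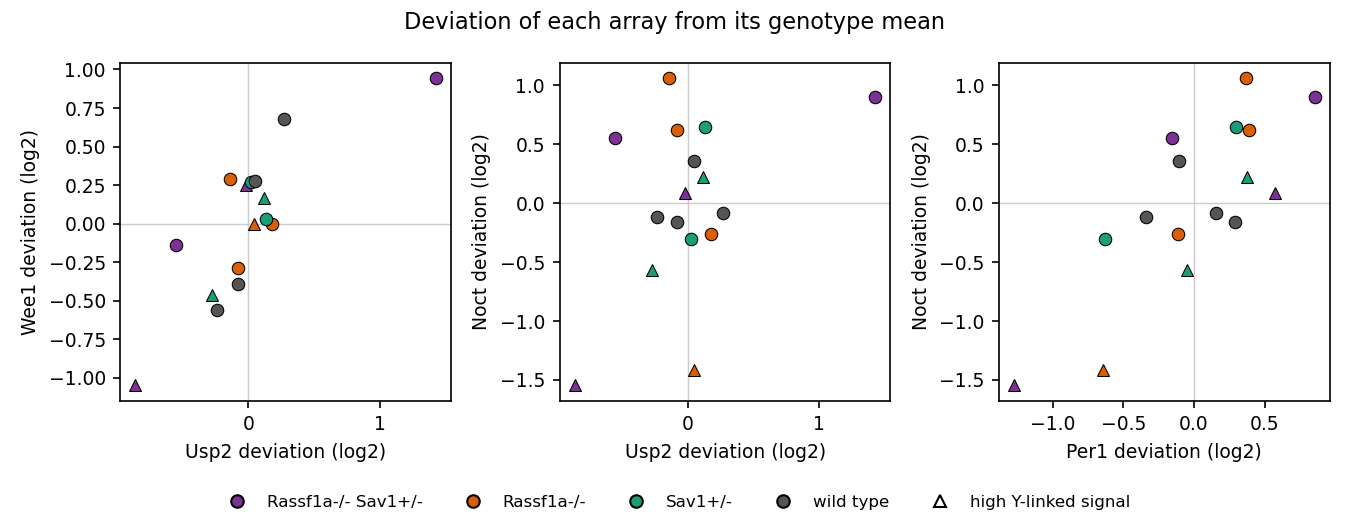
Deviations of each array from its genotype mean (log2) for Usp2 and Wee1, Usp2 and Noct, and Per1 and Noct, with 16 arrays in 4 genotypes. Double replicate 4 is at 1.43 for Usp2, 0.94 for Wee1 and 0.91 for Noct, and double replicate 2 at -0.86, -1.05 and -1.55.

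The clock genes were then set against the 3 outputs on the same deviations. Usp2 had r above 0.5 with 9 of the 15 and Wee1 with 10, each highest with Tef (0.926 and 0.806). Noct had r above 0.5 with 2, Bhlhe40 (0.811) and Per1 (0.797), while its r was 0.18 with Tef, 0.20 with Per3, 0.08 with Dbp and 0.01 with Per2. Many other genes of the 13152 kept had such r, and ranks bound their number. For Usp2 it was at least 817 and below 1278, as Per2 ranked 817 at 0.551 and Bhlhe40 1278 at 0.491. For Wee1 it was at least 667, the rank of Cry2 at 0.522. For Noct it was at least 1184 and below 2237, the ranks of Wee1 at 0.549 and Usp2 at 0.437. The exact share of all genes above 0.5 was not counted, and the 3 counts stand on different backgrounds. Leaving out each array in turn gave 6 to 10 genes for Usp2, 5 to 10 for Wee1 and 2 to 3 for Noct. The lower ends for Usp2 and Wee1 came without double replicate 4. The r of Noct stayed between 0.64 and 0.84 with Per1 and between 0.69 and 0.89 with Bhlhe40, and between -0.15 and 0.37 with Tef. The arrays share their genotype means and the difference between these correlations was not tested.

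**Figure D4:**
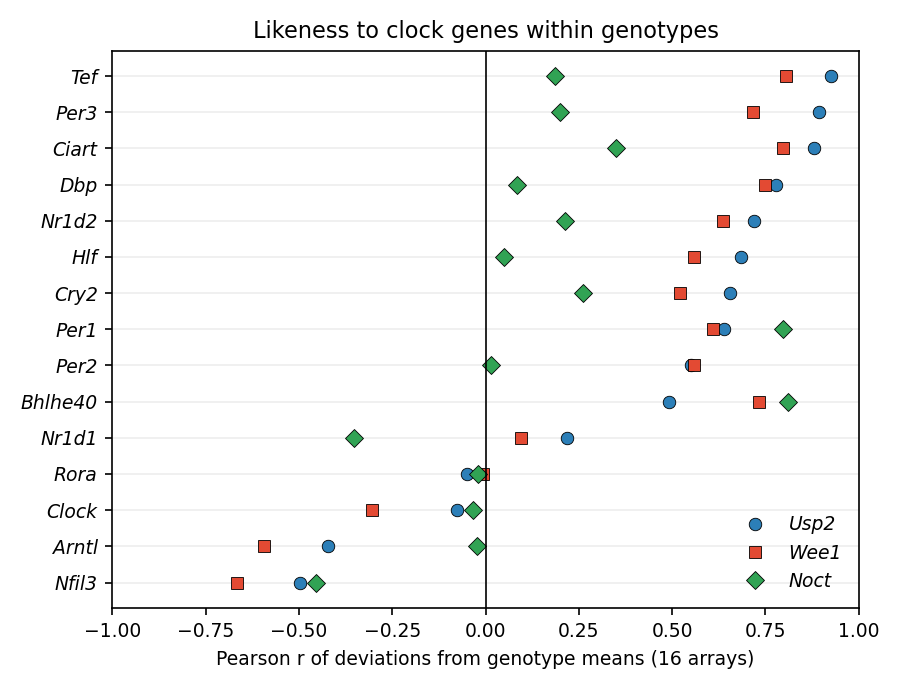
Pearson r of Usp2, Wee1 and Noct with 15 clock genes, computed over 16 arrays on deviations from genotype means. Usp2 and Wee1 are above 0.5 with 9 and 10 genes, Noct with Bhlhe40 and Per1 only. Of all 13152 genes kept, at least 817 and fewer than 1278 had such r with Usp2, and at least 667 with Wee1. With Noct at least 1184 and fewer than 2237 did.

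The 3 pairwise relations were tested within the 8 arrays with Rassf1a and within the 8 without it, by exact permutation within genotypes (576 permutations, smallest p 0.00174, 6 relations). With Rassf1a, Usp2 and Wee1 had r = 0.91 (exact two-sided p = 0.0122, adjusted 0.0729) and rho = 0.76 (p = 0.0503), and r was 0.73 without the 2 arrays farthest from the median. Usp2 and Noct had r = 0.58 (exact p = 0.151, adjusted 0.227) and rho = 0.74 (p = 0.0608), and Wee1 and Noct r = 0.35 (exact p = 0.349, adjusted 0.387) and rho = 0.38 (p = 0.307). None passed after adjustment. Over the 6 of these arrays with low Y-linked signal, r was 0.90, 0.30 and 0.07 for the 3 relations.

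Without Rassf1a, r was 0.87 for Usp2 and Wee1 (exact p = 0.0781, adjusted 0.219, rho 0.64, p = 0.156), 0.42 for Usp2 and Noct (exact p = 0.387, adjusted 0.387, rho 0.14, p = 0.771) and 0.64 for Wee1 and Noct (exact p = 0.109, adjusted 0.219, rho 0.60, p = 0.153). Leaving out the 2 arrays farthest from the median of the first gene gave 0.39, -0.51 and 0.04. These relations therefore rest on those 2 arrays.

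Noct also differed with the Y-linked signal, in a comparison added after seeing the data. Within genotypes the 5 arrays with high signal were lower than the other arrays, with a log2 difference of -1.17 ± 0.32 (SE, unadjusted p = 0.00184, limma adjusted p = 0.0410). In this fit limma called 622 genes (4.73%), 238 higher and 384 lower, and Noct ranked 589 by p, so it lay near the threshold. It passed in 5 of the 16 fits that leave out an array (-1.42 to -0.90), and without Rassf1a-/- replicate 2 or double replicate 2 it was at -0.90 (adjusted p = 0.273) and -0.91 (adjusted p = 0.126). Usp2 (-0.36 ± 0.27, adjusted p = 0.685) and Wee1 (-0.40 ± 0.27, adjusted p = 0.635) did not pass. With that mean of Y-linked genes as covariate, Noct was at -2.00 in double minus Sav1+/- livers and passed (limma adjusted p = 0.0149), whereas without the 5 arrays it was at -1.41 and did not (0.268). Wild type has no array of high signal, so the choosing comparisons are not balanced for it.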

How the data were processed

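Mouse liver RNA was measured in 16 samples, 4 per genotype, on 1-colour Affymetrix whole-transcript arrays. The authors deposited log2 signals per probe set, and the submitters' processing notes name Affymetrix Expression Console as the software. The sources used here state neither its version nor the summarisation, normalization or genome build. Array medians were 7.20 to 7.51, and the values were used as deposited. Scanner background was not used here, so precision is limited by the number of arrays.

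Of 35556 probe sets, 21789 name 1 gene in the platform annotation (21698 matched RefSeq by gene ID) and 1621 with several genes were left out. The probe set with the highest mean stood for a gene. Genes reaching the 40th percentile of their own array in at least 4 arrays were kept (13152). Limma 3.58.1 in R 4.3.3 fitted 4 genotype means to all 16 arrays (12 residual degrees of freedom, lmFit and eBayes), with Benjamini-Hochberg adjustment over all kept genes and a threshold of 0.05. Correlations used exact permutation. The limma step was tested on simulated data.

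The members and gene lists were chosen with earlier results of these data known. Named are the 3 members, their 5 most and 3 least similar genes over 16 arrays, their 3 most similar within genotypes, up to 4 genes of smallest p per list, and any clock gene. Alternatives were another filter, none, quantile normalization, median centring, trend and robust eBayes, array weights, a Y-linked covariate, no arrays of high Y-linked signal, only the compared genotypes, and leaving out each array.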

Additional observations from a re-analysis of the deposited data

Results flagged for a closer look

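Noct in wild-type replicate 3 stood apart from its group at a log2 signal of 10.36, against 9.84, 9.88 and 9.92 in the other 3 wild-type arrays. Its gap to the nearest array was 0.857 of the group's range. Of 12 groups (3 genes in 4 genotypes) this was the only one to exceed the limit for 4 samples. Chance alone exceeds it in about 1 in 20 groups, so 1 flag among 12 groups is not unusual. Without this array the difference of Sav1+/- minus wild type for Noct was 0.14.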

How the results depend on the processing

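The differences that describe Rassf1a-/- and double against wild type moved by less than 1 SD in all 156 combinations of gene, comparison and setting. That SD is the gene's own, within genotypes and pooled over the 16 arrays. It is a loose limit for Noct, whose SD was 1.09 in Rassf1a-/- and 1.08 in double livers. The double minus wild type difference of Noct was -1.21 without the 5 high Y-linked arrays. For double minus Sav1+/-, Usp2 and Wee1 kept their direction under every setting and lost their calls under 2. With only these genotypes fitted the differences were -2.98 and -1.94 (limma adjusted p = 0.0511 and 0.118), and without the 5 high Y-linked arrays -2.62 and -1.69 (0.116 and 0.220), where fewer arrays enter the fit. Noct gained a call with the Y-linked covariate (-2.00, 0.0149) and in 1 of 16 fits that leave out an array (-2.26 to -1.45).

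Signs close to 0 turned. Sav1+/- minus wild type for Noct was -0.00437 with arrays centred on their median, -0.0933 with array weights, and -0.20 to 0.21 over arrays left out. Double minus Rassf1a-/- for Noct was -0.12 with array weights and -0.11 to 0.88 over arrays left out, and for Usp2 -0.15 to 0.62. The interaction of Noct was -0.0255 with array weights, -0.0558 with the Y-linked covariate and -0.13 to 0.86 over arrays left out. The cause was not tested.

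Within-genotype correlations in arrays with Rassf1a became 0.30 (Usp2 and Noct) and 0.0719 (Wee1 and Noct) over arrays of low Y-linked signal. In arrays without Rassf1a they became 0.39 (Usp2 and Wee1), -0.51 (Usp2 and Noct) and 0.0419 (Wee1 and Noct) without the 2 farthest arrays. Noct by Y-linked signal was -1.17 with no filter (limma adjusted p = 0.0707, more genes tested) and -1.42 to -0.90 over arrays left out.

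Counts over all genes moved by more than 1.5 times. Over the 10 other settings limma called 59 to 898 genes for Rassf1a-/- against wild type (92 as reported), 6 to 1231 for double against wild type (108), 0 to 7 for Sav1+/- against wild type (0), 0 to 185 for double against Sav1+/- (110) and 0 to 1979, the highest with array weights, for double against Rassf1a-/- (1). Over arrays left out these counts were 54 to 128, 39 to 209, 0 to 6, 27 to 479 and 0 to 209. No paired analysis was possible because no label carries a replicate number. The interaction needs all 4 genotypes, so it was not run on the compared genotypes alone. Each gene has 1 probe set, so averaging probe sets changes none of its values. Signals near the filter level, as for Wee1 in the double genotype, limit how low a level can be read.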

Other observations

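The genes that ran most opposite to the 3 outputs over the 16 arrays were, for Usp2, Ddc, the decarboxylase that makes dopamine and serotonin (r = -0.961), Dtx4, a ubiquitin ligase of the Deltex family (-0.958), and Arntl (-0.951). For Wee1 they were Slc30a10, a manganese transporter (-0.940), Dtx4 (-0.932) and Gldc, the glycine decarboxylase of the cleavage system (-0.921). For Noct they were Mreg, melanoregulin (-0.857), Ddc (-0.850) and Plpbp, a pyridoxal phosphate binding protein (-0.845). These correlations include the split by genotype and are a description.

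Ddc had mean log2 signals of 10.43 in the double genotype, 10.52 in Rassf1a-/-, 9.35 in Sav1+/- and 9.26 in wild type (n = 4 each). Slc30a10 was at 10.59, 10.43, 9.54 and 9.15 in the same order, and Dtx4 at 9.20, 9.26, 8.32 and 8.10. All 3 were higher in both genotypes without Rassf1a than in both with it.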
